A study of Caenorhabditis elegans with 12 samples.

Results

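A set of 10 genes that Caenorhabditis elegans oocytes use to grow, mature and build the eggshell was followed through RNA sequencing of whole larvae. They are the RNA-binding regulators lin-41, oma-1, oma-2, puf-5, puf-11 and mex-3, the yolk receptor rme-2, and the eggshell and egg-surface genes cbd-1, egg-1 and egg-2. They are 10 of the 46926 genes in the deposited table and were chosen by name for their function, with earlier results of these data known. All 10 were found and passed the filter on low values, which kept the 15230 genes at 1 TPM or more in at least 3 libraries. TPM is a gene's share of a library's transcripts, corrected for gene length and scaled to the same sum in every library.

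The libraries came from the fourth larval stage (L4). The 4 groups, with 3 biological replicates each, were the laboratory wild type N2, the single mutants nuo-6(qm200) and itr-1(sa73), and the strain that carries both mutations, nuo-6; itr-1. itr-1 encodes the inositol trisphosphate receptor, a calcium channel of the endoplasmic reticulum that also acts in the contractile cells around the oocytes, and nuo-6 encodes a subunit of mitochondrial complex I. Every group was fed the HT115 strain of E. coli with an empty vector, and each library was made from a pooled culture of whole animals. Culture temperature and exact age within L4 are not stated in the labels, so a group is a population of one labelled stage rather than a set of staged gonads.

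In a C. elegans hermaphrodite each gonad arm first makes sperm, during the last larval stage, and then switches to oocytes. A growing oocyte takes up yolk made in the intestine, stores maternal RNAs whose translation is held back by RNA-binding proteins, and waits in meiotic prophase until a sperm signal triggers maturation. The zinc-finger proteins OMA-1 and OMA-2 are redundantly required for maturation, LIN-41 restrains it, and the eggshell forms after fertilisation from chitin and proteins that the oocyte has already made.

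All 46926 gene IDs of the table were in the WBcel235 annotation and 44115 had a symbol. On that build lin-41 (WBGene00003026) lies at I:9334800-9342496 on the minus strand, with 4 annotated transcripts, and mex-3 (WBGene00003229) at I:127285-134270 on the plus strand, with 5. The paired genes are not neighbours: oma-1 (WBGene00003864) lies at IV:8888976-8890999 and oma-2 (WBGene00003865) at V:8029439-8031214, both on the plus strand. The gene puf-5 (WBGene00004241) lies at II:8575541-8577787 and puf-11 (WBGene00022257) at IV:6421585-6423497, both on the plus strand. The receptor gene rme-2 (WBGene00004374) at IV:5470026-5473174 and cbd-1 (WBGene00010351) at IV:11372991-11377627 are also on the plus strand. The similar genes egg-1 (WBGene00015083, III:5728180-5730159, plus strand) and egg-2 (WBGene00019811, III:7058527-7060583, minus strand) share a chromosome but are 1328367 bases apart. Values are for whole genes, exons and untranslated regions together. Of the members, egg-1 shares 42 exonic bases with a gene on the opposite strand, B0244.9, and a library kit that marks strand was used per the labels, while the counting setting is not given in the sources used here.

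Each library had the same summed TPM, to rounding, and held between 13879 and 14902 genes at 1 TPM or more, and no 2 libraries held identical values. The depth in reads is unknown, because TPM keeps none. Both mutations leave the mutated transcript in place, so the levels of itr-1 and nuo-6 do not check the labels: itr-1 was at 21.2 ± 3.18 TPM in N2 against 27.1 ± 4.20 TPM in itr-1(sa73), and nuo-6 at 324 ± 7.18 TPM in N2 against 392 ± 15.1 TPM in nuo-6(qm200) (SD, n = 3 each). Defining genes of body muscle, intestine and neurons were present in every library, whereas 10 genes first transcribed in the early embryo summed to between 0.371 and 0.938 TPM per library. Among them pes-10 was at 0 in 10 of 12 libraries, and end-1 did not exceed 0.211 TPM in any. In whole animals, fewer cells of a type and less RNA per cell cannot be told apart.

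The members were moderately expressed. Within a library, cbd-1, a chitin-binding protein of the outer eggshell layer, was the highest member in 10 of 12 libraries and mex-3, a KH-domain RNA-binding protein, in the other 2, replicate 1 of N2 and replicate 1 of nuo-6. The lowest in all 12 libraries was egg-2, which encodes a receptor-like protein of the egg surface needed for fertilisation. Summed over the 10 genes, the level ran from 93.2 to 180 TPM in N2, from 219 to 260 in nuo-6, from 205 to 527 in nuo-6; itr-1 and from 284 to 661 in itr-1.

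**Figure D1:**
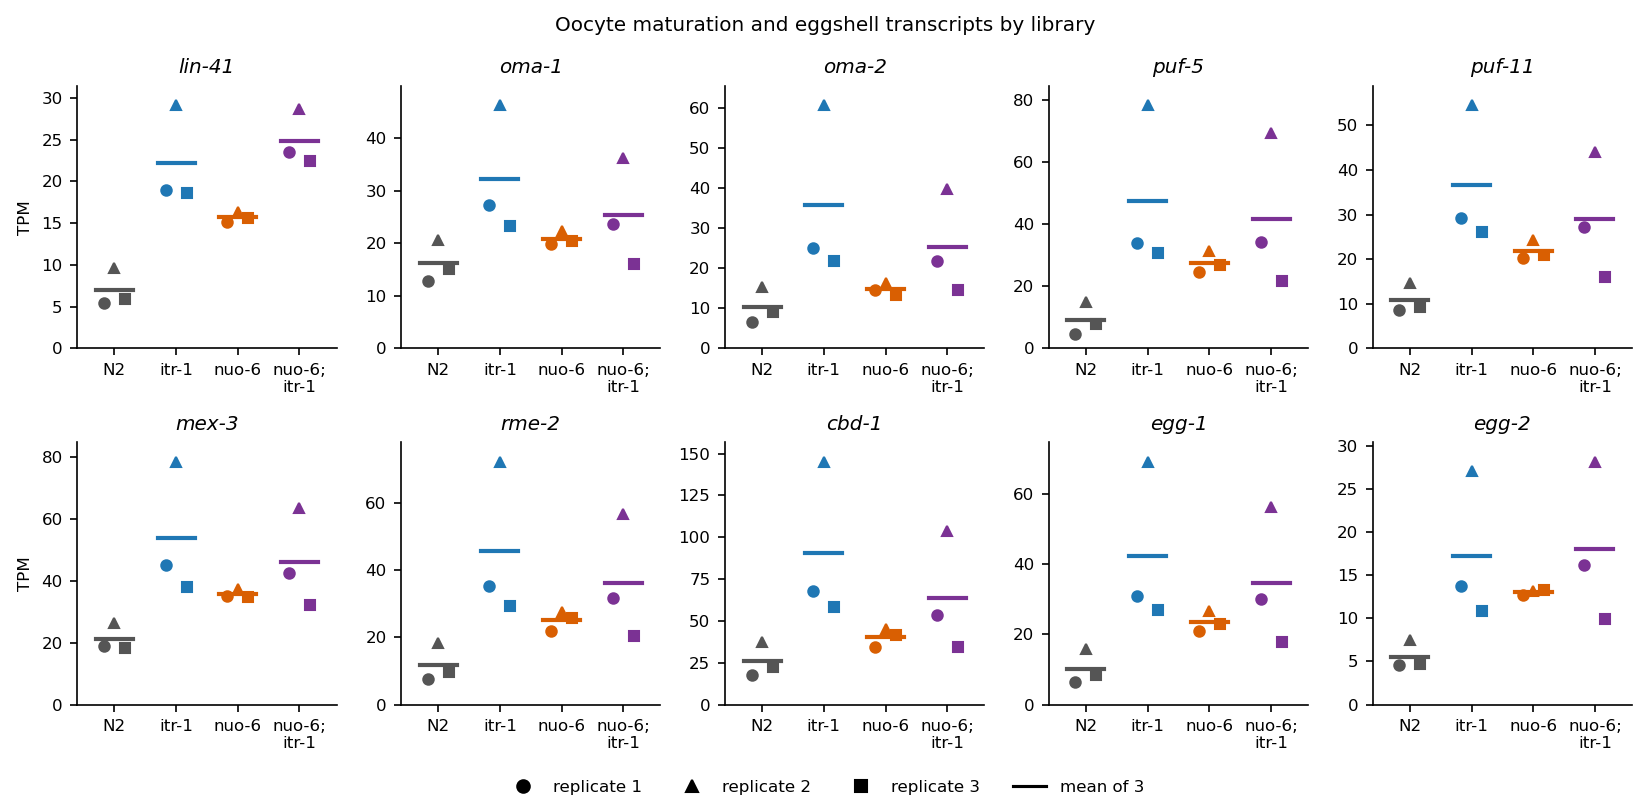
TPM of each of the 10 genes (one panel a gene, y axes from 0 with different ranges) in the 12 libraries by genotype; circles, triangles and squares are replicates 1, 2 and 3 and horizontal lines are means. The N2 mean is the lowest of the 4 in every panel, and the triangle of replicate 2 is the highest point of its genotype in every panel for N2, itr-1 and nuo-6; itr-1.

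Among the RNA-binding regulators, lin-41 had the smallest SE of the log2 fold. It encodes a TRIM-NHL protein that also times larval development in the epidermis as a target of the let-7 microRNA, so its level in whole larvae can include tissue outside the germ line. It was at 5.48, 9.60 and 5.95 TPM in N2 replicates 1 to 3, at 19, 29.1 and 18.7 TPM in itr-1, at 15.2, 16.3 and 15.7 TPM in nuo-6, and at 23.5, 28.7 and 22.5 TPM in nuo-6; itr-1. Every mutant library was above every N2 library, and every itr-1 and nuo-6; itr-1 library was above every nuo-6 library. The log2 fold against N2, on the log2(TPM + 1) scale, was 1.54 ± 0.20 (SE) in itr-1, 1.10 ± 0.20 in nuo-6 and 1.72 ± 0.20 in nuo-6; itr-1, with limma adjusted p of 0.000266, 0.000937 and 2.83e-05.

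Of the redundant oma genes, oma-1 had the smallest log2 fold of the 10 in each mutant. Its N2 libraries were at 12.8, 20.5 and 15.2 TPM, those of itr-1 at 27.3, 46.2 and 23.2, those of nuo-6 at 19.9, 22.4 and 20.4, and those of nuo-6; itr-1 at 23.7, 36.3 and 16.1 TPM. Only the itr-1 libraries were all above the N2 libraries: the log2 fold was 0.92 ± 0.29 in itr-1 (limma adjusted p = 0.0298), 0.38 ± 0.29 in nuo-6 (adjusted p = 0.306) and 0.57 ± 0.29 in nuo-6; itr-1 (adjusted p = 0.110). With the libraries scaled by median of ratios, the itr-1 value was 0.75, with an adjusted p of 0.0553.

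For oma-2 the N2 libraries were at 6.67, 15.3 and 9.09 TPM, the itr-1 libraries at 25.1, 60.7 and 21.9, the nuo-6 libraries at 14.5, 16.4 and 13.3, and the nuo-6; itr-1 libraries at 21.7, 39.9 and 14.5 TPM. Here too N2 replicate 2 lay within the nuo-6 and nuo-6; itr-1 libraries, and only itr-1 stood clear. The log2 fold was 1.62 ± 0.42 in itr-1 (limma adjusted p = 0.0122), 0.54 ± 0.42 in nuo-6 (adjusted p = 0.307) and 1.17 ± 0.42 in nuo-6; itr-1 (adjusted p = 0.0307). The last call was lost under median-of-ratios scaling (0.90, adjusted p = 0.0806).

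The PUF-family repressor puf-5, which acts in late oocyte formation, had the largest fold of the 10 in all 3 mutants. It was at 4.67, 15 and 7.68 TPM in N2, at 33.8, 78.1 and 30.7 in itr-1, at 24.5, 31.2 and 26.9 in nuo-6, and at 34.2, 69.3 and 21.5 TPM in nuo-6; itr-1. No mutant library overlapped N2, and the mutants overlapped each other. The log2 fold was 2.26 ± 0.47 in itr-1, 1.62 ± 0.47 in nuo-6 and 2.05 ± 0.47 in nuo-6; itr-1, with limma adjusted p of 0.00441, 0.0143 and 0.00313.

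A second PUF protein made in oocytes, puf-11, rose from 10.8 ± 3.41 TPM in N2 (SD, n = 3) to 36.6 ± 15.6 in itr-1, 21.8 ± 2.18 in nuo-6 and 29 ± 14.1 in nuo-6; itr-1. The range in N2, 8.48 to 14.7 TPM, lay below the lowest mutant library at 15.9 TPM, and the log2 folds were 1.63 ± 0.35, 0.98 ± 0.35 and 1.27 ± 0.35. For mex-3, needed for early embryonic fates and for keeping germ cells undifferentiated, the means were 21.2 ± 4.54 TPM in N2, 53.7 ± 21.6 in itr-1, 35.6 ± 1.45 in nuo-6 and 46.1 ± 15.9 in nuo-6; itr-1. Its highest N2 library, 26.4 TPM, was below the lowest mutant library, 32.3 TPM, with log2 folds of 1.25 ± 0.28, 0.74 ± 0.28 and 1.05 ± 0.28. Both genes passed in all 3 mutants, with limma adjusted p between 0.00504 and 0.0428.

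The yolk receptor rme-2, of the LDL receptor family, takes up vitellogenin at the oocyte surface. It was at 7.52, 18.4 and 9.73 TPM in N2, at 35.3, 72.3 and 29.3 in itr-1, at 22, 27.7 and 25.7 in nuo-6, and at 31.7, 56.7 and 20.2 TPM in nuo-6; itr-1. All 9 mutant libraries were above all 3 N2 libraries, by a small margin for nuo-6; itr-1 replicate 3. The log2 fold was 1.84 ± 0.41 in itr-1 (limma adjusted p = 0.00629), 1.10 ± 0.41 in nuo-6 (adjusted p = 0.0434) and 1.50 ± 0.41 in nuo-6; itr-1 (adjusted p = 0.00852).

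The yolk proteins, which are made in the intestine, did not move with their receptor in the double mutant. Against N2, rme-2 was higher in nuo-6; itr-1, while 3 of 6 vit genes were lower (5 without nuo-6; itr-1 replicate 2), none was higher, and their median log2 fold was -2.51. Of all genes tested, 17% were called lower in that comparison. Against itr-1, all 6 vit genes were lower in nuo-6; itr-1, with a median log2 fold of -3.45 beside 0.09 over all genes tested, while the difference in rme-2 was -0.34 ± 0.41 (limma adjusted p = 0.535). That count of 6, where 45.7% of all genes were called in either direction, was 3 without itr-1 replicate 2, without nuo-6; itr-1 replicate 1 or without nuo-6; itr-1 replicate 3. Library by library, vit-2 was at 213, 1108 and 257 TPM in itr-1 and at 31.1, 270 and 28.0 TPM in nuo-6; itr-1, so the replicates numbered 2 were highest in both and the groups overlapped. In N2 vit-2 was at 37.7, 247 and 83.7 TPM. No vit gene passed in itr-1 or nuo-6 against N2 (limma adjusted p for vit-2 of 0.103 and 0.0931), and the similar vit-3, vit-4 and vit-5 may share reads.

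Of the eggshell genes, cbd-1 was at 17.7, 37.1 and 22.6 TPM in N2, at 67.8, 145 and 58.3 in itr-1, at 34.5, 44.9 and 41.5 in nuo-6, and at 53.3, 104 and 34.5 TPM in nuo-6; itr-1. The itr-1 libraries were all above the N2 libraries, whereas N2 replicate 2 overlapped the lowest library of each of the other mutants. The log2 fold was 1.72 ± 0.42 in itr-1 (limma adjusted p = 0.00919), 0.68 ± 0.42 in nuo-6 (adjusted p = 0.195) and 1.19 ± 0.42 in nuo-6; itr-1 (adjusted p = 0.0276). Median-of-ratios scaling took the last value to 0.91, with an adjusted p of 0.0758.

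The egg-surface gene egg-1 was at 6.47, 15.8 and 8.27 TPM in N2, at 30.9, 69.1 and 27 in itr-1, at 21.0, 26.6 and 23.1 in nuo-6, and at 30.1, 56.2 and 17.7 TPM in nuo-6; itr-1. Its relative egg-2 was at 4.55, 7.46 and 4.67 TPM in N2, at 13.7, 27.2 and 10.9 in itr-1, at 12.8, 13.2 and 13.3 in nuo-6, and at 16.2, 28.2 and 9.92 TPM in nuo-6; itr-1. For both genes every mutant library was above every N2 library, and both passed in all 3 mutants (limma adjusted p from 0.00482 to 0.0377). The log2 folds of egg-1 were 1.92 ± 0.44 in itr-1, 1.22 ± 0.44 in nuo-6 and 1.61 ± 0.44 in nuo-6; itr-1, and those of egg-2 were 1.40 ± 0.36, 1.13 ± 0.36 and 1.46 ± 0.36.

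Counted together, 10 of the 10 genes were higher in itr-1 than in N2 at an adjusted p under 0.05, where 29% of all genes tested were called higher. Their median log2 fold was 1.63, beside 0.14 over all genes. As a ratio of mean TPM the increase ran from 2.00-fold for oma-1 to 5.21-fold for puf-5. All 10 also had no overlap between the itr-1 and N2 libraries, as had 36.3% of all genes in that direction. Without N2 replicate 1 the count was 8.

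In nuo-6, 7 of 10 were called higher against a background of 37.3% of genes, and the same 7 had no overlap with N2, against 46.1%. The genes outside that count were oma-1, oma-2 and cbd-1. The median log2 fold was 1.04, beside 0.18 over all genes, and ratios of means ran from 1.29-fold for oma-1 to 3.02-fold for puf-5. The count was sensitive to the libraries and the scale. It was 3 with median-of-ratios scaling and 2 with quantile normalisation, but 8 with library weights and 9 without all libraries numbered 2. It was 1 without N2 replicate 1, 2 without N2 replicate 3, 2 without any single nuo-6 library and 4 without nuo-6; itr-1 replicate 1.

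In nuo-6; itr-1, 9 of 10 were called higher than in N2, all but oma-1, against a background of 46.3%. There was no overlap with N2 for 7 of the 10, against 48.2% of genes, with oma-1, oma-2 and cbd-1 overlapping. The median log2 fold was 1.36, beside 0.25 over all genes, and ratios of means ran from 1.57-fold for oma-1 to 4.57-fold for puf-5. The 3 comparisons with N2 share the N2 libraries. Taken relative to the median gene of each comparison, the members' log2 folds ran from 0.78 to 2.12 in itr-1, from 0.20 to 1.44 in nuo-6 and from 0.33 to 1.80 in nuo-6; itr-1.

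**Figure D2:**
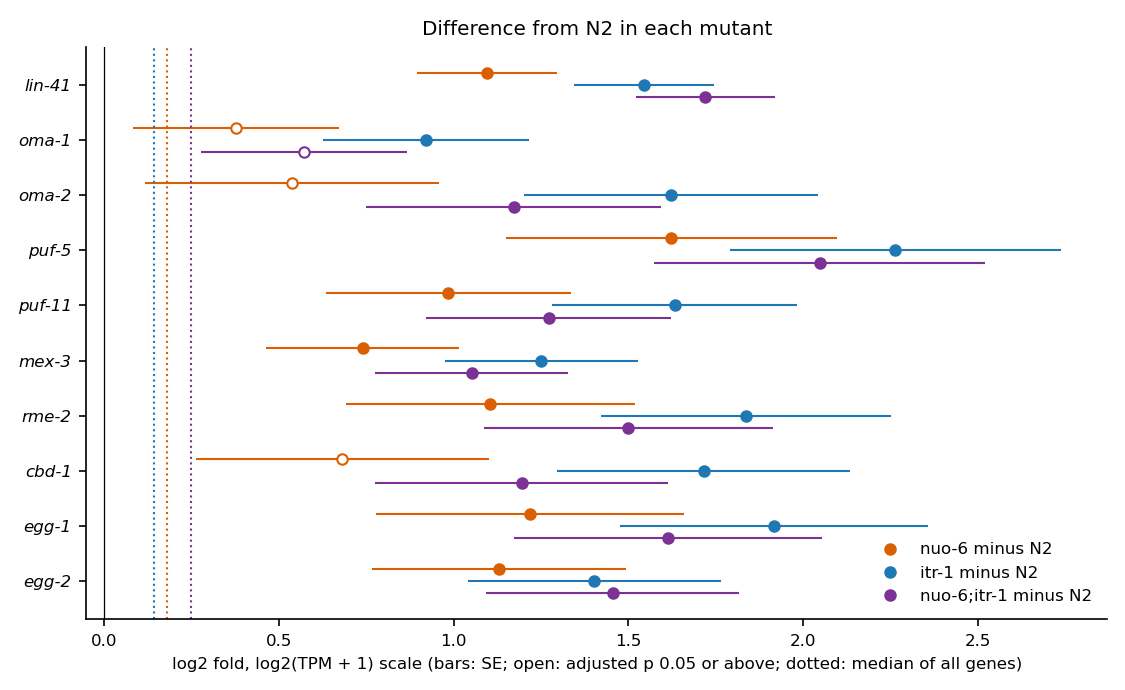
Log2 fold against N2 on the log2(TPM + 1) scale (x axis) of each of the 10 genes in nuo-6, itr-1 and nuo-6; itr-1; bars are SE of the limma fit, open circles have an adjusted p of 0.05 or above, and dotted lines are the medians of all genes tested. All points lie to the right of the dotted line of their comparison, and the open circles are oma-1, oma-2 and cbd-1 in nuo-6 and oma-1 in nuo-6; itr-1.

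Ordered by mean TPM, N2 was lowest and nuo-6 next for all 10 genes. The highest group was itr-1 for 8 genes and nuo-6; itr-1 for lin-41 and egg-2. The step from N2 to nuo-6 was free of overlap for 7 genes, the step from nuo-6 to the next group only for lin-41, and the 2 highest groups overlapped for all 10. Replicates of nuo-6 lay close together, with coefficients of variation between 2.16% and 13.1%. They were 21.4% to 58.3% in N2, 26.7% to 60.0% in itr-1 and 13.2% to 59.4% in nuo-6; itr-1.

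No member passed between the mutants in the fit of equally weighted libraries with genotype as its only term. For itr-1 minus nuo-6, the log2 differences ran from 0.27 to 1.09, all 10 positive, with limma adjusted p from 0.0682 to 0.585 and 95% intervals within -0.53 to 2.01. Of all genes tested, 13.9% were called higher in this comparison and 45.3% had an unadjusted p under 0.05, which 3 of the 10 had. The libraries did not overlap for 8 of the 10, all but puf-5 and egg-2, against 23.6% of genes in that direction. Library weights gave 1 call, quantile normalization 1 and a fit of only these groups 2, and leaving out a single library gave 2 without nuo-6; itr-1 replicate 2, 2 without nuo-6; itr-1 replicate 3 and 1 without itr-1 replicate 3. Without all libraries numbered 2 the count was 2. With the replicate number as a block it was 8. The numbers were not taken to pair the samples, although deviations of libraries numbered 2 from their group means correlated at 0.12 to 0.51.

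The difference between groups with and without itr-1(sa73) was also read in the nuo-6 background. For nuo-6; itr-1 minus nuo-6, the log2 differences ran from 0.20 for oma-1 to 0.63 for oma-2, and 0 of 10 were called (limma adjusted p from 0.0583 to 0.673) where 9.99% of genes were called higher. The 95% intervals lay within -0.62 to 1.56, so a doubling was not outside them for most genes. One gene had an unadjusted p under 0.05, lin-41, compared with 31% of all genes. The value for lin-41 was 0.62 ± 0.20 (adjusted p = 0.0583), and it alone had no overlap between the libraries, against 27.2% of genes. It passed without N2 replicate 2 or without itr-1 replicate 2. The members' median difference was 0.40, beside 0.07 over all genes. Without nuo-6; itr-1 replicate 2 it was 0.0013, beside 0.05 over all genes. In that fit oma-1, puf-5, puf-11, egg-1 and egg-2 were slightly below 0, so the positive differences of these genes rested on that library.

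Whether the 2 backgrounds differ is tested by the interaction, the itr-1(sa73) difference in the nuo-6 background minus that in N2. It was negative for all 10 genes, from -1.84 ± 0.67 for puf-5 (limma adjusted p = 0.0985) to -0.72 ± 0.42 for oma-1 (adjusted p = 0.282), with a median of -1.14 beside -0.05 over all genes. None of the 10 passed, against 8.32% of all genes called lower. The smallest adjusted p was 0.0581, for lin-41, and 6 of 10 had an unadjusted p under 0.05, as had 28.6% of all genes. The 95% intervals of the 10 lay within -3.32 to 0.33. The count of 0 depended on the fit and on single libraries. With all libraries kept but weighted by their spread, 8 genes passed, and with the replicate number as a block, 7 passed. Without nuo-6; itr-1 replicate 2, 6 passed, and without N2 replicate 2, 1. With all 4 libraries numbered 2 left out, an alternative chosen after seeing the data, 8 passed.

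**Figure D3:**
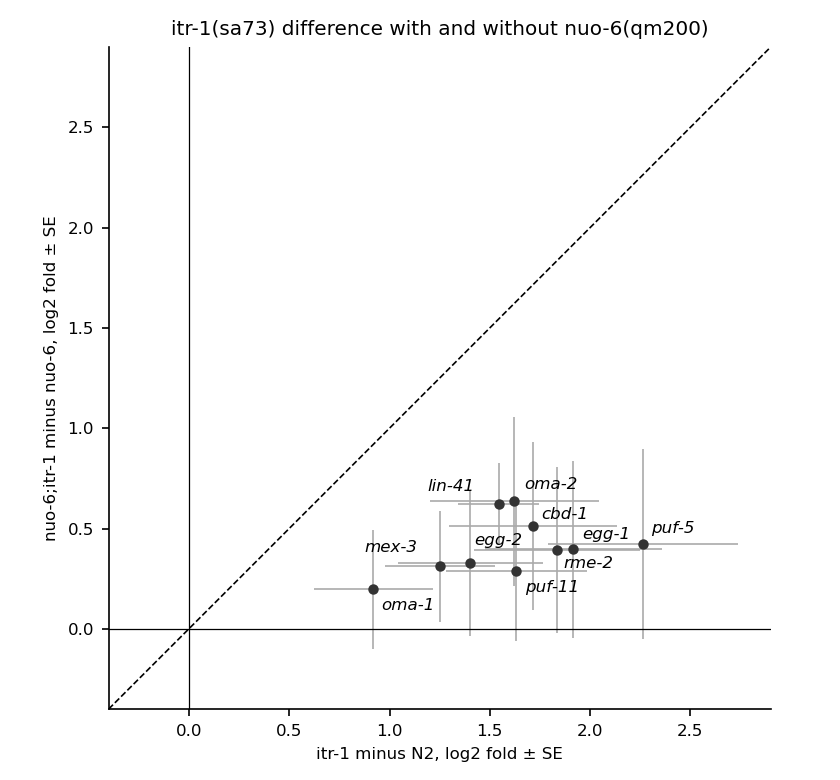
Log2 difference between groups with and without itr-1(sa73) for each of the 10 genes, without nuo-6(qm200) on the x axis (itr-1 minus N2) and with nuo-6(qm200) on the y axis (nuo-6; itr-1 minus nuo-6); bars are SE of the limma fit and the dashed line marks equal differences. All 10 points lie below the dashed line, between 0.92 and 2.26 on the x axis and between 0.20 and 0.63 on the y axis.

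The opposite addition, nuo-6; itr-1 minus itr-1, gave values from -0.52 for cbd-1 to 0.18 for lin-41. None passed (limma adjusted p from 0.336 to 0.920), where 45.7% of all genes were called in either direction, and none of the 10 had an unadjusted p under 0.05, as 53.3% of genes had. Here 8 genes were below 0, and lin-41 and egg-2 above it. The 95% intervals lay within -1.45 to 0.85, which includes a halving for several genes, so equal levels were not shown.

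Within a genotype the members rose and fell together from library to library. Replicate 2 was the highest library for all 10 genes in N2, itr-1 and nuo-6; itr-1, and for 9 of 10 in nuo-6. Relative to the mean of the other replicates, the level in replicate 2 was 1.42 to 2.43 times as high in N2, 1.55 to 2.58 times in itr-1 and 1.25 to 2.49 times in nuo-6; itr-1, but 1.01 to 1.21 times in nuo-6. Replicate 3 was the lowest for all 10 in itr-1 and in nuo-6; itr-1. As a description over 12 libraries, which share genotype and composition, Pearson's r between 2 members ran from 0.779 to 0.999 over the 45 pairs, with a median of 0.964. After subtracting each genotype's mean it ran from 0.843 to 0.997, with a median of 0.976. The lowest typical correlations were those of lin-41, whose replicate 2 in nuo-6; itr-1 was only 1.25 times the others.

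Values of other gene groups moved with these libraries. Yolk protein RNA summed to 3735 TPM in itr-1 replicate 2 and to 685 and 845 TPM in replicates 1 and 3. The cuticle collagen col-19, which marks the adult epidermis, was at 1360 TPM in itr-1 replicate 2 beside 491 and 466 TPM, and at 254 TPM in N2 replicate 2 beside 63.9 and 120 TPM. Moulting and cuticle genes ran the other way in itr-1, with 1789 TPM in replicate 2 beside 2789 and 2461. Their part in the members' values was not tested.

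The same holds between genotypes. The summed level of 16 moulting and cuticle genes was 4266 to 4515 TPM in N2, 2260 to 2615 in nuo-6, 1789 to 2789 in itr-1 and 2018 to 2191 in nuo-6; itr-1, without overlap between N2 and any mutant. Of the 16, 13 were lower in itr-1, 11 in nuo-6 and 12 in nuo-6; itr-1, and 1 was higher in each. Of the 15230 genes tested, 1696, 2292 and 2588 were called lower in these comparisons. The moulting gene mlt-10 fell by 1.12 ± 0.15 in itr-1, by 1.56 ± 0.15 in nuo-6 and by 2.02 ± 0.15 in nuo-6; itr-1 on the log2 scale (limma adjusted p at or below 0.0004). In the same comparisons col-19 rose by 2.43 ± 0.57, 3.17 ± 0.57 and 2.21 ± 0.57 (adjusted p from 0.000893 to 0.00796). The other gene of the adult epidermis list, lin-29, did not rise, at -0.13, -0.16 and -0.08, and was not called in any. The mean of col-19 was highest in nuo-6, at 1145 ± 207 TPM, with itr-1 at 772 ± 509. The libraries of these 2 groups overlapped, and itr-1 minus nuo-6 was -0.74 for col-19 on the log2 scale, without a call. Whether the position of a library within L4 bears on the members was not tested, and genotype and position cannot be told apart where the markers do not overlap.

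**Figure D4:**
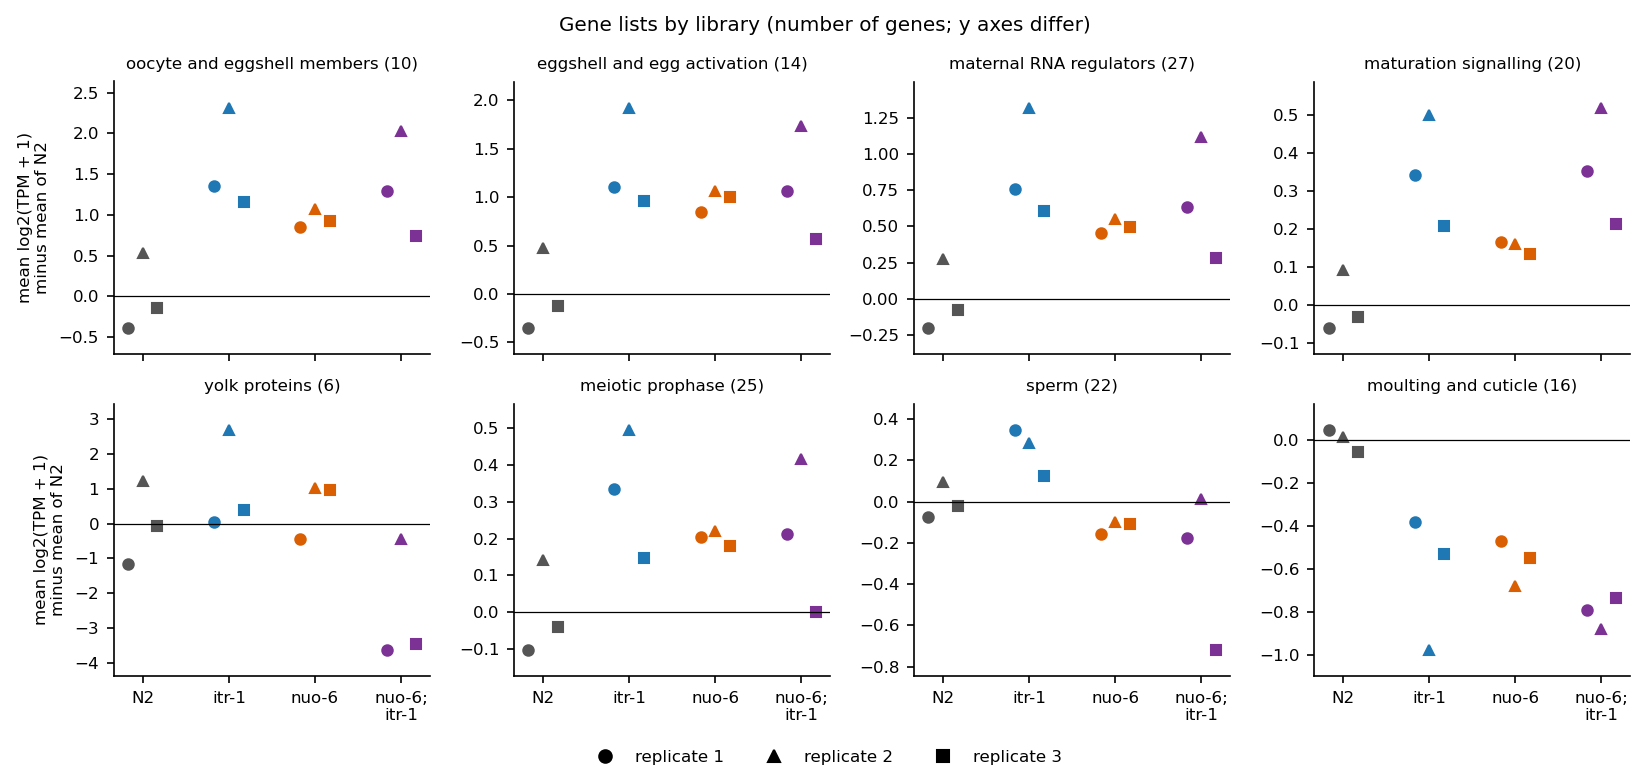
Mean log2(TPM + 1) of 8 gene lists in each library minus the mean of the N2 libraries (y axis, different ranges), by genotype, with replicates 1 to 3 as circles, triangles and squares. The 10 members, the eggshell list and the maternal RNA regulators share the raised replicate 2 of itr-1 and of nuo-6; itr-1, the moulting list is below N2 in all mutant libraries, and the yolk list is lowest in nuo-6; itr-1 replicates 1 and 3.

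Other eggshell and egg-activation genes behaved much as the members. In itr-1, 13 of 14 were higher and 1 lower than in N2, with a median log2 fold of 1.31. The chitin synthase chs-1, which makes the chitin layer, rose by 1.27 ± 0.34 (limma adjusted p = 0.0148) and cpg-2, a chitin-binding chondroitin proteoglycan of the eggshell, by 2.22 ± 0.46 (adjusted p = 0.00412). The permeability-barrier gene perm-4 rose by 1.90 ± 0.47 (adjusted p = 0.0092), and egg-3, which anchors egg-activation regulators at the oocyte cortex, by 1.21 ± 0.34 (adjusted p = 0.0179). The gene that fell was gna-1, an aminosugar acetyltransferase, with 14.1 ± 1.62 TPM in N2 against 9.14 ± 1.73 in itr-1, singled out after its value was seen.

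In nuo-6, 8 of the 14 were higher and none lower, and in nuo-6; itr-1 12 were higher and none lower, with median log2 folds of 0.82 and 1.07. These shares of 57.1% and 85.7%, and 92.9% in itr-1, stand beside 37.3%, 46.3% and 29% of all genes called higher. The smaller nuo-6 count contained cpg-3 (1.87 ± 0.48, limma adjusted p = 0.00769) but not chs-1 (0.64 ± 0.34, adjusted p = 0.143) or egg-3 (0.62 ± 0.34, adjusted p = 0.152). With median-of-ratios scaling the counts were 11 higher and 1 lower in itr-1, 6 higher in nuo-6, and 6 higher and 1 lower in nuo-6; itr-1. Leaving out 1 library lowered the itr-1 count to 8 without N2 replicate 1 or itr-1 replicate 2. In nuo-6 it was 3 without N2 replicate 1, 4 without N2 replicate 3 or nuo-6 replicate 2 or 3, and 5 without nuo-6 replicate 1. In nuo-6; itr-1 it was 7 without N2 replicate 1, N2 replicate 3 or nuo-6; itr-1 replicate 2.

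Of 27 further maternal RNA regulators, 22 were higher and none lower in itr-1, 11 higher and 3 lower in nuo-6, and 14 higher and 2 lower in nuo-6; itr-1. As shares called higher these were 81.5%, 40.7% and 51.9% of the list, beside 29%, 37.3% and 46.3% of all genes, so the shares in nuo-6 and nuo-6; itr-1 were near those of all genes. Their median log2 folds were 0.80, 0.46 and 0.51. The germline translational repressor gld-1, whose targets include many oocyte RNAs, was 0.73 ± 0.20 higher in itr-1 (limma adjusted p = 0.0174), and 0.19 ± 0.20 and 0.22 ± 0.20 in nuo-6 and nuo-6; itr-1 (adjusted p = 0.462 and 0.361). The zinc-finger regulator pos-1 passed in all 3 mutants, at 1.91 ± 0.46, 1.54 ± 0.46 and 1.79 ± 0.46, as did nos-2, of the Nanos family, at 2.15 ± 0.43, 1.44 ± 0.43 and 1.91 ± 0.43.

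The scale mattered for that list. With median-of-ratios scaling 19 were higher and 1 lower in itr-1, 4 higher and 3 lower in nuo-6, and 8 higher and 3 lower in nuo-6; itr-1. Leaving out 1 library gave between 16 and 24 higher in itr-1. In nuo-6 it gave between 2 and 13, with 2 without N2 replicate 1, 3 without N2 replicate 3, 5, 4 and 3 without nuo-6 replicates 1, 2 and 3. In nuo-6; itr-1 it gave between 9 and 21, with 9 without N2 replicate 1, N2 replicate 3 or nuo-6; itr-1 replicate 2.

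Genes of the maturation signal and its cell-cycle response moved less. Of 20, 10 were higher in itr-1, 3 in nuo-6 and 10 in nuo-6; itr-1, and none was lower, with medians of 0.25, 0.11 and 0.28 beside 0.14, 0.18 and 0.25 over all genes. The shares called higher were 50% in itr-1, 15% in nuo-6 and 50% in nuo-6; itr-1, beside 29%, 37.3% and 46.3% of all genes, so nuo-6 was below and nuo-6; itr-1 near the share of all genes. With median-of-ratios scaling these counts became 4 higher in itr-1, 1 higher and 6 lower in nuo-6, and 4 higher and 3 lower in nuo-6; itr-1. Without itr-1 replicate 2 the itr-1 count was 4, without N2 replicate 1 it was 5 and without N2 replicate 3 it was 6. In nuo-6 it was 1 without N2 replicate 1 or nuo-6 replicate 1, 5 without N2 replicate 2 or nuo-6; itr-1 replicate 3, and 6 without itr-1 replicate 2 or nuo-6; itr-1 replicate 2. The gap-junction gene inx-14 passed in all 3, at 0.77 ± 0.18, 0.78 ± 0.18 and 0.87 ± 0.18 (limma adjusted p from 0.00144 to 0.00729). The kinase wee-1.3, which holds oocytes in prophase, was 0.75 ± 0.20 higher in itr-1 (adjusted p = 0.0127) and 0.71 ± 0.20 in nuo-6; itr-1 (adjusted p = 0.0085). The kinase cdk-1 that drives entry into division gave 0.25 ± 0.12, -0.14 ± 0.12 and 0.08 ± 0.12, none passing (adjusted p from 0.128 to 0.566).

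Other germline and gonadal groups are given beside the members. The summed level of 25 meiotic prophase genes was 409 to 485 TPM in N2, 482 to 493 in nuo-6, 476 to 606 in itr-1 and 425 to 573 in nuo-6; itr-1, a narrower span than the members'. Against N2, 9 of the 25 were called higher in itr-1, with none lower. In nuo-6 and in nuo-6; itr-1, 8 were higher and 2 lower. The shares higher in itr-1, nuo-6 and nuo-6; itr-1 were 36%, 32% and 32%, beside 29%, 37.3% and 46.3% of all genes. Median log2 folds were 0.27, 0.18 and 0.21, beside 0.14, 0.18 and 0.25 over all genes. For 1 of them, him-3, an axis protein of meiotic chromosomes, the log2 differences from N2 were 0.15 ± 0.10 in itr-1, -0.16 ± 0.10 in nuo-6 and -0.17 ± 0.10 in nuo-6; itr-1, none passing (limma adjusted p from 0.185 to 0.275). The 22 sperm genes summed to 215 to 244 TPM in N2, 208 to 218 in nuo-6, 259 to 325 in itr-1 and 127 to 241 in nuo-6; itr-1. Against N2, 8 of the 22 were called higher and 2 lower in itr-1. None was higher in nuo-6 or in nuo-6; itr-1, where 6 and 8 were lower. The share of sperm genes called higher in itr-1 was 36.4%, beside 29% of all genes. The shares called lower in nuo-6 and nuo-6; itr-1 were 27.3% and 36.4%, beside 15% and 17% of all genes. In nuo-6; itr-1 against itr-1, 16 sperm genes were lower and none higher, where 45.7% of all genes were called in either direction. The 9 sheath and spermatheca genes summed to 251 to 273 TPM in N2 and to between 282 and 335 TPM in the mutants. The part of these groups in the members' values was not tested.

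Ratios between similar members also shifted with genotype. The level of oma-1 was 1.34 to 1.91 times that of oma-2 in N2 and 1.36 to 1.53 times in nuo-6, but 0.762 to 1.09 times in itr-1 and 0.911 to 1.10 times in nuo-6; itr-1. The 6 libraries with the itr-1(sa73) allele were thus all below the 6 without it. For puf-5 over puf-11 the ratio was 0.551 to 1.02 in N2 and between 1.16 and 1.57 in all 9 mutant libraries. For egg-1 over egg-2 it was 2.25 to 2.54 in itr-1, above all other libraries, which ran from 1.42 to 2.12.

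In N2 replicate 2, the library with the highest levels of its group, the oma and puf ratios were the N2 values nearest to the mutants. The ratios are descriptions with no test, and reads of similar genes may be split between them: puf-11 has a close relative, puf-3, whose level followed it at 0.786 to 1.19 times over the 12 libraries.

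**Figure D5:**
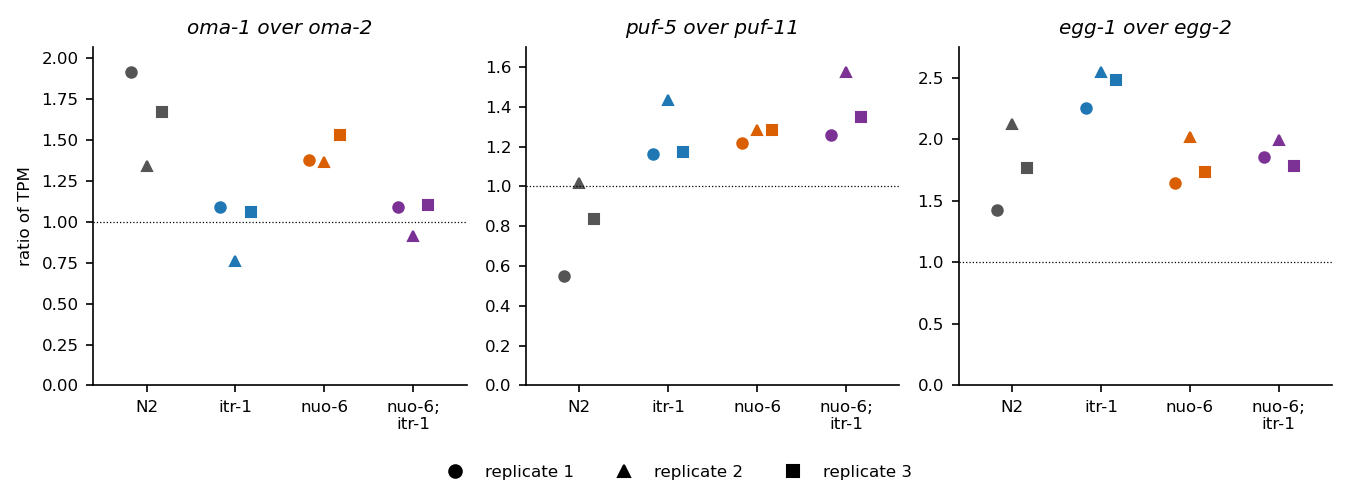
Ratio of TPM (y axis, from 0) of oma-1 over oma-2, puf-5 over puf-11 and egg-1 over egg-2 in each of the 12 libraries by genotype; symbols mark replicates 1 to 3 and the dotted line marks equal levels. The oma ratio runs from 0.762 to 1.10 over the libraries with the itr-1 allele, the puf ratio from 1.16 to 1.57 over the mutant libraries and the egg ratio is highest in itr-1.

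The genes most like the 10 were found by Pearson's r over 12 libraries with their mean standardised level, among 10831 other named genes with a mean of at least 5 TPM. The first was trcs-1 (r = 0.997), followed by cpg-1, the eggshell proteoglycan, and gfat-2, an enzyme of the aminosugar route that supplies chitin synthesis. Then came the B-type cyclin cyb-2.1, nasp-2, C05C10.5, the zinc-finger regulator mex-1 and the C-type lectin gene clec-91, the last with r = 0.995. Such values were not rare, since 621 genes had an r over 0.9, and all share the libraries and their composition. The levels of gfat-2 were 6.51 to 15.7 TPM in N2, 19.2 to 22.5 in nuo-6, 25.8 to 63.0 in itr-1 and 16.9 to 45.3 in nuo-6; itr-1.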

How the data were processed

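PolyA-selected RNA of whole L4 larvae was measured in 12 libraries, 4 genotypes with 3 biological replicates each. For 46926 genes the authors deposited TPM, made on WBcel235 per the submitters' processing notes. Which aligner, counter and annotation release were used, and the read depth, is not given in the sources used here. Each library has the same sum, so abundant genes shift all others.

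Genes at 1 TPM or more in at least 3 libraries (15230) were fitted with limma 3.58.1 in R 4.3.3 on log2(TPM + 1), with 1 mean per genotype over all 12 libraries (8 residual degrees of freedom), eBayes with trend, 7 comparisons and Benjamini-Hochberg adjustment over all genes within each. A call is an adjusted p under 0.05. Fold changes on this scale understate changes of low genes. The fit was tested on simulated data with known fold changes. The simulated noise was independent between genes and equally wide in all genotypes. It therefore does not cover the members' shared movement or their unequal spread between genotypes. Intervals are 95%. Named genes are the 10 members, a fixed set from the pathway lists and the 8 genes most like the members. Beyond these, gna-1 was added for its value and lin-29 as the other gene of the list that holds col-19. The members and lists were chosen with earlier results of these data known. The list of maternal RNA regulators lost puf-10, which was not matched. The replicates are biological per the labels, which do not say what a number shares between genotypes. Alternatives were pseudocounts of 0.1 and 0.5, no filter or a stricter filter (5 TPM), quantile normalisation, median-of-ratios scaling, library weights, robust eBayes, fits of the compared groups only, a replicate block and leaving out each library. Leaving out all libraries numbered 2 was added after seeing the data. Sequences were not used here. Figures were drawn with matplotlib 3.10.9, and tables made with pandas 2.3.3 and numpy 2.4.6 under Python 3.11.15.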

Additional observations from a re-analysis of the deposited data

How the results depend on the processing

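The counts of members higher than N2 in itr-1 (10) and in nuo-6; itr-1 (9) stayed within 8 to 10 and 7 to 10 over 23 alternatives each. The nuo-6 count of 7 was 3 with no filter, 3 with median-of-ratios scaling, 2 with quantile normalisation and between 1 and 7 without 1 library. It was 8 with library weights, 8 with the replicate block and 9 without all libraries numbered 2. Median-of-ratios scaling divided the N2 libraries by 0.860 to 0.926 and the others by 0.980 to 1.12, which took the median of all genes against N2 to about 0 (-0.01 in itr-1) from 0.14 to 0.25. Between mutants the counts of 0 rose as follows. For nuo-6; itr-1 minus nuo-6 they were 2 with library weights, 1 in the fit of only these groups, 1 without all libraries numbered 2 and 0 to 1 without 1 library. For nuo-6; itr-1 minus itr-1 the count was 1 without all libraries numbered 2 and 0 without any 1 library. For itr-1 minus nuo-6 it was 1 with quantile normalisation, 1 with library weights, 2 in the fit of only these groups, 2 without all libraries numbered 2 and 0 to 2 without 1 library. For the interaction it was 8 with library weights, 8 without all libraries numbered 2 and 0 to 6 without 1 library. The causes of these changes were not tested.

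With the replicate number as a block, the counts were 1 for nuo-6; itr-1 minus nuo-6, 8 for itr-1 minus nuo-6 and 7 for the interaction. The numbers were not taken to pair the samples. Deviations from the group means correlated above 0.1 in 11 of 18 same-numbered pairs (median 0.12, lowest -0.02, highest 0.51). Of the 12 libraries, 7 correlated best with their own number. The pairs of replicates 2 all correlated above 0.1, from 0.12 to 0.51. Those of replicates 1 ran from 0.02 to 0.17 and those of replicates 3 from -0.02 to 0.45. The fit without the block leaves the shared deviations of replicates 2 in its spread. Its lack of calls in these comparisons therefore does not show equal levels. What the libraries numbered 2 share was not tested.

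Of 1600 single-gene values under alternatives, 1452 kept direction and side of the threshold, 64 newly passed, 62 no longer passed and 22 changed sign, none of these passing. By log2 value, egg-2 in nuo-6; itr-1 minus itr-1 became -0.055 with median-of-ratios scaling and -0.051 with quantile normalisation. Without all libraries numbered 2, oma-1 and egg-2 in nuo-6; itr-1 minus nuo-6 became -0.043 and -0.031, and egg-2 in itr-1 minus nuo-6 -0.084. Without 1 library, values that changed sign in nuo-6; itr-1 minus nuo-6 ran from -0.091 to 0.47 for oma-1, from -0.015 to 0.81 for puf-5, from -0.060 to 0.65 for puf-11, from -0.020 to 0.79 for egg-1 and from -0.038 to 0.67 for egg-2. In nuo-6; itr-1 minus itr-1 they ran from -0.66 to 0.20 for puf-5, from -0.45 to 0.10 for mex-3, from -0.71 to 0.044 for rme-2, from -0.72 to 0.11 for egg-1 and from -0.31 to 0.42 for egg-2. In itr-1 minus nuo-6 those of egg-2 ran from -0.091 to 0.53. Depth is unknown, so counting error was not separated from other spread.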
